A study of Homo sapiens with 8 samples.

Results

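Ribosome footprints were set against input RNA, gene by gene, in MOLM-13 cells that carried a hairpin against circMYBL2. The genes described are the 8841 protein-coding genes, of 19847 in the deposited tables and of 58302 genes of all types, that were above 0 in both footprint libraries and both input RNA libraries of this hairpin. The genes were chosen by, and ranked on, the RPKM of footprints and the FPKM of RNA in these 4 libraries, so the ratios within this hairpin are given as a description with no test. MOLM-13 is an established line of acute myeloid leukaemia, with a fused MLL-AF9 gene and an FLT3 allele that holds an internal tandem duplication. The whole series holds 8 libraries in 4 groups of 2: footprints and input RNA of cells with a control hairpin (sh-NC), and footprints and input RNA of cells with the circMYBL2 hairpin, a group that the sample titles spell Sh-cricMY1. circMYBL2 is a circular RNA made from exons of the MYBL2 gene, and by its title the series is about the control of FLT3 translation by this circle. All libraries came from total RNA and passed through the same ribosomal RNA removal and small RNA library kits. The labels do not say how the hairpins were delivered, whether a group was 1 clone, or whether its libraries were separate cultures, so the spread between libraries may be technical. No row of the tables was matched to the circle, and its loss was not checked.

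A ribosome moving along an mRNA shields a short stretch of it from nuclease, and sequencing of these shielded fragments, the footprints, counts ribosomes on each mRNA. The footprint level divided by the RNA level is called translational efficiency, since mRNAs differ in how many ribosomes they engage per molecule. Best known are the TOP mRNAs, which begin with a C followed by a run of pyrimidines, encode ribosomal proteins and other parts of the translation machinery, and move in and out of polysomes with growth signals through mTORC1 and LARP1.

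The 30 bases around the transcription start are shown for 6 mRNAs with such a start and for 3 mRNAs near the top of the ranking, because such a start was found in 9 of the 12 lowest-ratio genes with a promoter window and in 0 of the 12 highest. Each runs from 10 bases before the start to 20 bases from it, in RefSeq coordinates of GRCh38.p14. Capitals mark the run of pyrimidines that begins with the C at the start. RPS12, RPL26, TPT1 and RPS24 were among the 15 lowest ratios, RPLP1 and CCNI had the same kind of start with ratios near or above the median, and TK1, SF3B5 and CENPA had the 3 highest ratios among members with at least 1 FPKM of RNA and 20 footprint reads.
RPS12, chr6:132814559-132814588, plus strand: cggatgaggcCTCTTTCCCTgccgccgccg
RPL26, chr17:8383174-8383203, minus strand: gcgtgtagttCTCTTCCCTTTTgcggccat
TPT1, chr13:45341164-45341193, minus strand: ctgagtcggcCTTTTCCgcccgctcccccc
RPS24, chr10:78033853-78033882, plus strand: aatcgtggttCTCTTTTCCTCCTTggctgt
RPLP1, chr15:69452808-69452837, plus strand: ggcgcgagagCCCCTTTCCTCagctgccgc
CCNI, chr4:77075970-77075999, minus strand: ctctcttcccCTCCCTCCCCagccttcccc
TK1, chr17:78187185-78187214, minus strand: cagtccctgggcgcacgtcccggattcctc
SF3B5, chr6:144095554-144095583, minus strand: cggtggcttcactctcctgtaaaacgctag
CENPA, chr2:26786046-26786075, plus strand: cgagcggcgcggacttctgccaagcaccgg

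The footprint libraries were shallow beside the RNA. Libraries a and b held 222855 and 715092 reads on genes against 13653769 and 14111585 in the RNA libraries. They carry letters because their columns, cricMY1 and cricMY2, could not be matched to single replicates, as both sample titles read Sh-cricMY1. Protein-coding genes took 56.4% and 81.7% of footprint reads, and microRNA genes took 32.8% and 12.2%. The 2 sh-NC footprint libraries held 33708 and 88701 protein-coding reads against 125761 and 584185 here. Of 10 markers of MOLM-13 and myeloid cells, 9 had at least 1 FPKM of RNA, all but CD68. None of the markers of erythroid, megakaryocyte, B or fibroblast and epithelial cells reached that level, and of 8 T and NK cell markers CD4, NKG7 and TRAC did. In bulk libraries, fewer cells of a type and less RNA per cell cannot be told apart.

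Across the 8841 genes the ratio spread over several orders of magnitude and was repeatable between the footprint libraries. The 2 tables were normalized separately, so a ratio has meaning only against the ratios of other genes, and each is given as log2 relative to the median member. From the 5th to the 95th percentile it ran from -2.25 to 2.50, a 26.8-fold range, with extremes of -7.40 and 6.72 and an SD over genes of 1.46. The ratio of library a over RNA 1 and that of library b over RNA 2 correlated with r = 0.80 across genes, or 0.86 over the 6389 genes with at least 20 footprint reads in the 2 libraries. RNA libraries 1 and 2 correlated with r = 0.99 in log2, so these ratios have nearly the same denominator, which adds to their r. Log2 footprints of libraries a and b, without RNA, correlated with r = 0.86 over all members. Genes are not independent replicates, and each ratio shares its libraries with all others. The SD between libraries a and b had a median of 0.38, with 0.32 among genes with at least 20 reads and 0.61 among those below.

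**Figure D1:**
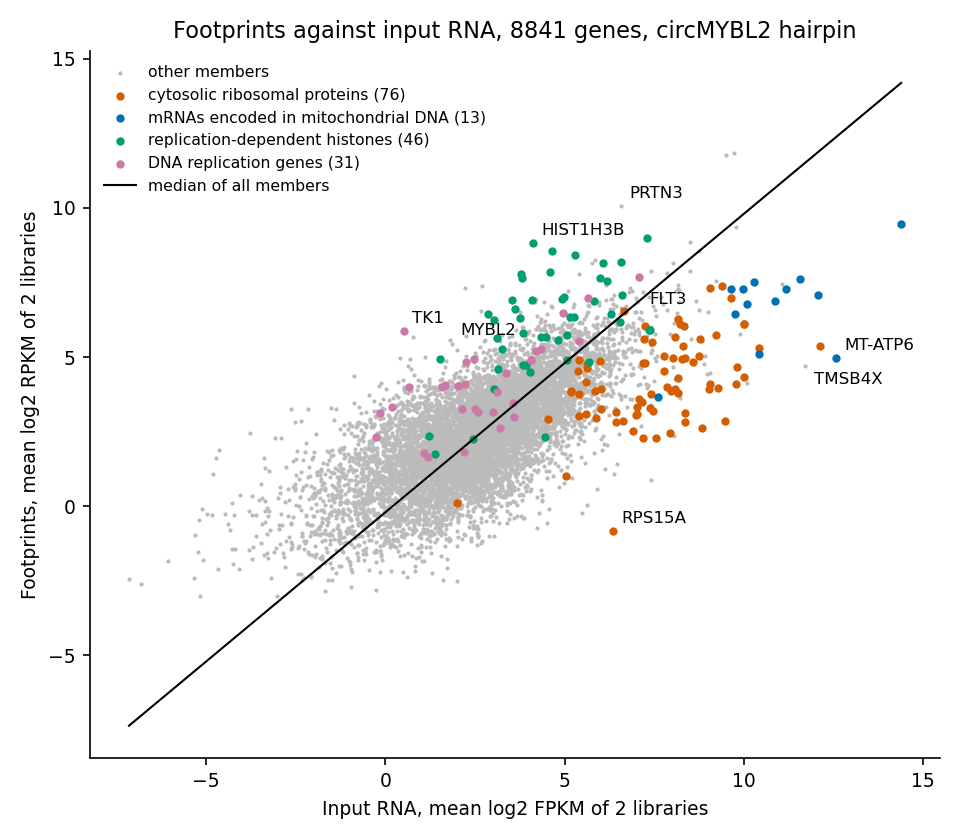
Mean log2 footprint level in RPKM (vertical axis) against mean log2 input RNA in FPKM (horizontal axis) for 8841 genes in cells with the circMYBL2 hairpin, n = 2 libraries each. The line marks the median ratio; ribosomal protein genes and mitochondrially encoded genes lie below it, and most histone and DNA replication genes above it.

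Among members with at least 1 FPKM of RNA and 20 footprint reads, the 15 highest ratios mostly stood on little RNA and came from genes of varied function, among them TK1, CENPA and CDC25B of the cell cycle and 4 histone genes. TK1, the thymidine kinase that cells make in S phase, had 72.6 and 46.8 RPKM of footprints (35 and 97 reads) on 1.47 and 1.37 FPKM of RNA. Its ratio was 5.56 ± 0.51 (SD, n = 2), 47.2 times the median. CENPA, the histone H3 variant of centromeres, had 77.9 and 33.97 RPKM on 1.74 and 1.67 FPKM, a ratio of 5.11 ± 0.90. In both genes the 2 footprint libraries lay far above both RNA values. CDC25B, a phosphatase that activates cyclin-dependent kinases at entry to mitosis, followed with 31.3 and 21.9 RPKM on 1.60 and 1.48 FPKM (4.28 ± 0.43).

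Splicing was represented by SF3B5, a small subunit of the U2 snRNP factor SF3b, and by SNRPB, a core Sm protein. SF3B5 had 156 and 165 RPKM of footprints on 4.89 and 4.37 FPKM of RNA, and SNRPB had 163 and 167 RPKM on 5.69 and 7.33 FPKM. These 2 genes had the closest libraries of the 15, with ratios of 5.31 and 4.87 that differed by an SD of at most 0.04 between libraries. FASN, the fatty acid synthase, had 31.8 and 18.9 RPKM on 1.49 and 1.79 FPKM (4.10 ± 0.59). TSPO, a cholesterol-binding protein of the outer mitochondrial membrane, had 23.9 and 40.1 RPKM on 1.04 and 1.66 FPKM. MIF, a cytokine, had 45.3 and 20.25 RPKM on 1.30 and 1.99 FPKM. ENDOG, a mitochondrial nuclease, had 3 and 30 reads and the thinnest footprint data of the 15. The remaining members were the histone genes HIST1H3B, HIST1H4B, HIST1H1E and HIST1H3H, PLPPR3 of the phospholipid phosphatase-related family, and the clone-named gene AL031777.3, with ratios of 4.04 to 4.92.

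At the other end, among members with at least 20 FPKM of RNA, stood mRNAs with much RNA and few footprints. MT-ATP6, the mitochondrially encoded subunit a of ATP synthase, had 6766 and 5391 FPKM of RNA but 56.7 and 17.1 RPKM of footprints, from 10 and 13 reads, and its ratio of -7.40 ± 1.28 was the lowest of all. TMSB4X, which encodes the actin-binding thymosin beta 4, had 3392 and 3321 FPKM of RNA and 20.4 and 33.7 RPKM of footprints (-6.80 ± 0.46). FTH1, the ferritin heavy chain, had 170 and 169 FPKM of RNA and 2 footprint reads in each library (-6.33 ± 1.55). RNA exceeded footprints in every library of these 3 genes by far more than the libraries differed.

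Ribosomal proteins filled 8 of the 15 places. RPS12 had 4401 and 4523 FPKM of RNA and 45.3 and 37.5 RPKM of footprints, a ratio of -6.56 ± 0.25 or 0.0106 times the median. RPS15A stood lower at -7.00 ± 0.13 but on 1 and 4 reads, and RPL32, RPL26, RPS24, RPS18, RPL31 and RPS3A lay between -6.41 and -5.28. TPT1, the translationally controlled tumour protein whose mRNA is a classical TOP mRNA, had 1072 and 1106 FPKM of RNA and 14.3 and 21.1 RPKM of footprints (27 and 171 reads, -5.77 ± 0.34). GOLGA8M, a golgin paralog with 1 read in each library, C6orf48, which RefSeq lists as the snoRNA host SNHG32, and ATP5E, the epsilon subunit of ATP synthase, completed the 15. GOLGA8M belongs to a family of near-identical copies, so its reads are uncertain.

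**Figure D2:**
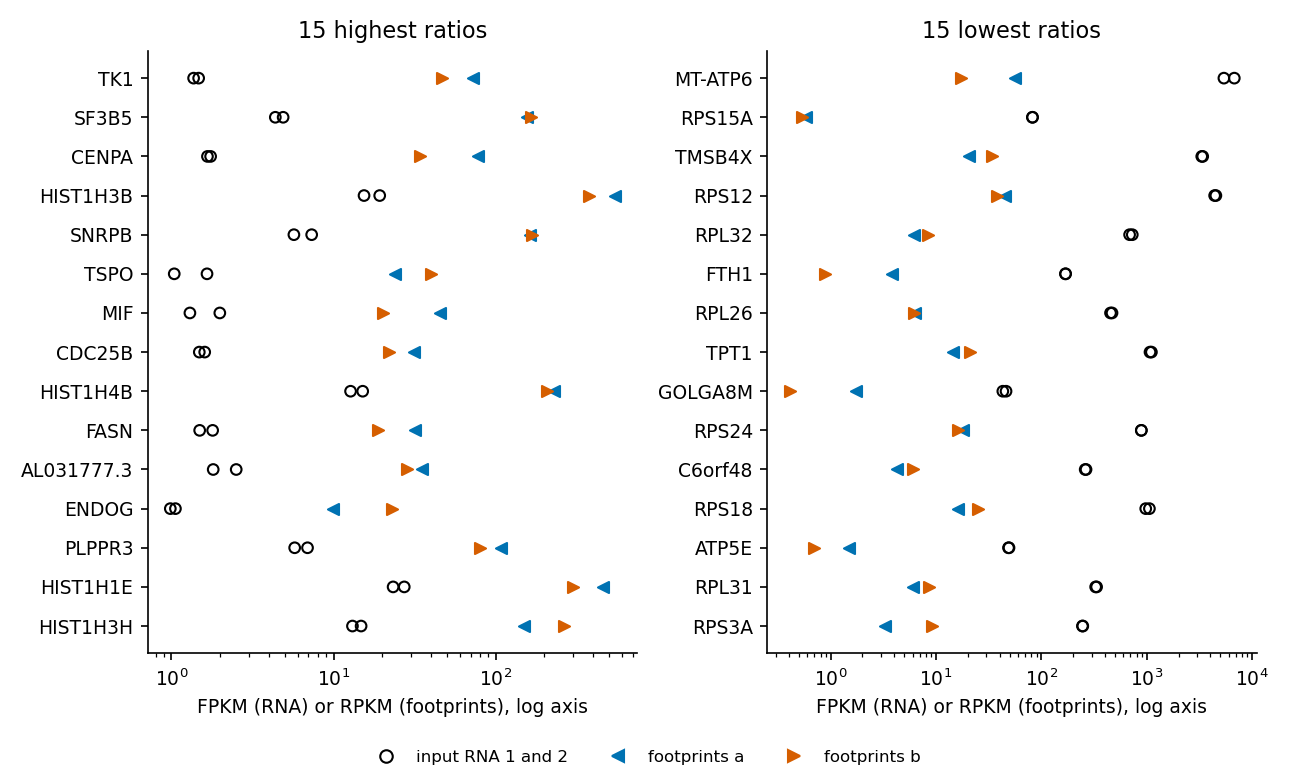
Values of the 15 highest and 15 lowest genes by the naming rule in each of the 4 libraries: open circles are the 2 input RNA libraries in FPKM and triangles the 2 footprint libraries in RPKM, on a log axis. Footprints lie to the right of RNA in all 15 genes on the left and to the left of RNA in all 15 on the right.

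The ranking did not use the sequence at the start of the mRNA. A C at the first listed RefSeq start with at least 4 pyrimidines after it, on the transcribed strand, was found in 9 of the 12 lowest genes with a promoter window and in 0 of the 12 highest. Among all 27305 genes with a window it was found in 4.04%, and among the 7300 members with one in 5.82%. The lowest genes were taken from members with at least 20 FPKM of RNA and the highest from at least 1 FPKM. The shares above therefore compare genes at unlike RNA levels. Outside the ribosomal proteins and other TOP mRNAs, 374 members with such a start had a median ratio of -0.08 and 6852 without it one of 0.02. In the highest of 5 equal groups by RNA, again outside both lists, the medians were -0.97 for 113 with it and -0.62 for 1230 without. The match is a description of letters at an annotated start, and starts used in MOLM-13 were not measured. Pseudogenes named after the gene were also unevenly spread, with a median of 12 among the lowest 15 genes and 0 among the highest.

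The translation machinery lay low as a group. Of 79 cytosolic ribosomal protein genes, 76 were members, and 75 of these lay below the median member, with 61 among the 884 lowest. Their median ratio was -3.21, or 0.108 times the median member, with medians of -3.38 in library a and -3.23 in library b. The 45 members of the large subunit had a median of -3.05 and the 31 of the small subunit one of -3.50. RPLP1, an acidic stalk protein, had the highest ratio of the large subunit, with 31.9 and 28.6 RPKM of footprints on 41.8 and 42.5 FPKM of RNA (-0.28 ± 0.17). RPS15A, with 82.4 and 82.0 FPKM, had more RNA than RPLP1 and a far lower ratio.

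The other TOP mRNAs, which encode elongation factors and translation-linked proteins, had a median of -2.35 over 20 members, with 17 below the median member. NACA, the nascent polypeptide-associated complex subunit, had 302 and 298 FPKM of RNA against 13.1 and 11.7 RPKM of footprints (-4.40 ± 0.18). PABPC1, the poly(A)-binding protein, had 2163 and 2088 FPKM against 183 and 168 RPKM (-3.40 ± 0.14), with 225 and 891 footprint reads behind it. EEF2, the translocase of elongation, lay at the median (-0.01), while CCNI, a cyclin, had 43.4 and 72.5 RPKM on 33.4 and 33.2 FPKM (0.95 ± 0.47) and IMPDH2, an enzyme of guanine nucleotide synthesis, stood at 0.48 ± 0.02. The list's median moved to -0.08 over the 7 members with no pseudogene named after them.

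Of 33 translation initiation factors, 23 lay below the median member, and the list's median was -0.79. Low were EIF4A2, a helicase of the cap-binding complex, with 162 and 160 FPKM of RNA and 15.7 and 17.3 RPKM of footprints (-3.09 ± 0.04), and EIF2S3, the gamma subunit of eIF2, with 367 and 374 FPKM and 43.4 and 53.5 RPKM (-2.74 ± 0.16). EIF6, which keeps ribosomal subunits apart, stood at 2.07 ± 0.66 and EIF3I, a subunit of eIF3, at 1.12 ± 0.12. Over the 13 eIF3 subunits of this and the TOP list together, 12 lay below the median member and the median was -1.78. The 20 aminoacyl-tRNA synthetases, which charge tRNAs, had a median of -0.59 with 15 below, from SARS at -1.70 ± 0.52 and NARS at -1.51 ± 0.35 to VARS at 1.17 ± 0.55 and FARSA at 1.56 ± 0.50. Against members of the same RNA level, in 5 equal groups, the median of the initiation factors was -0.15 and that of the synthetases changed side to 0.064.

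**Figure D3:**
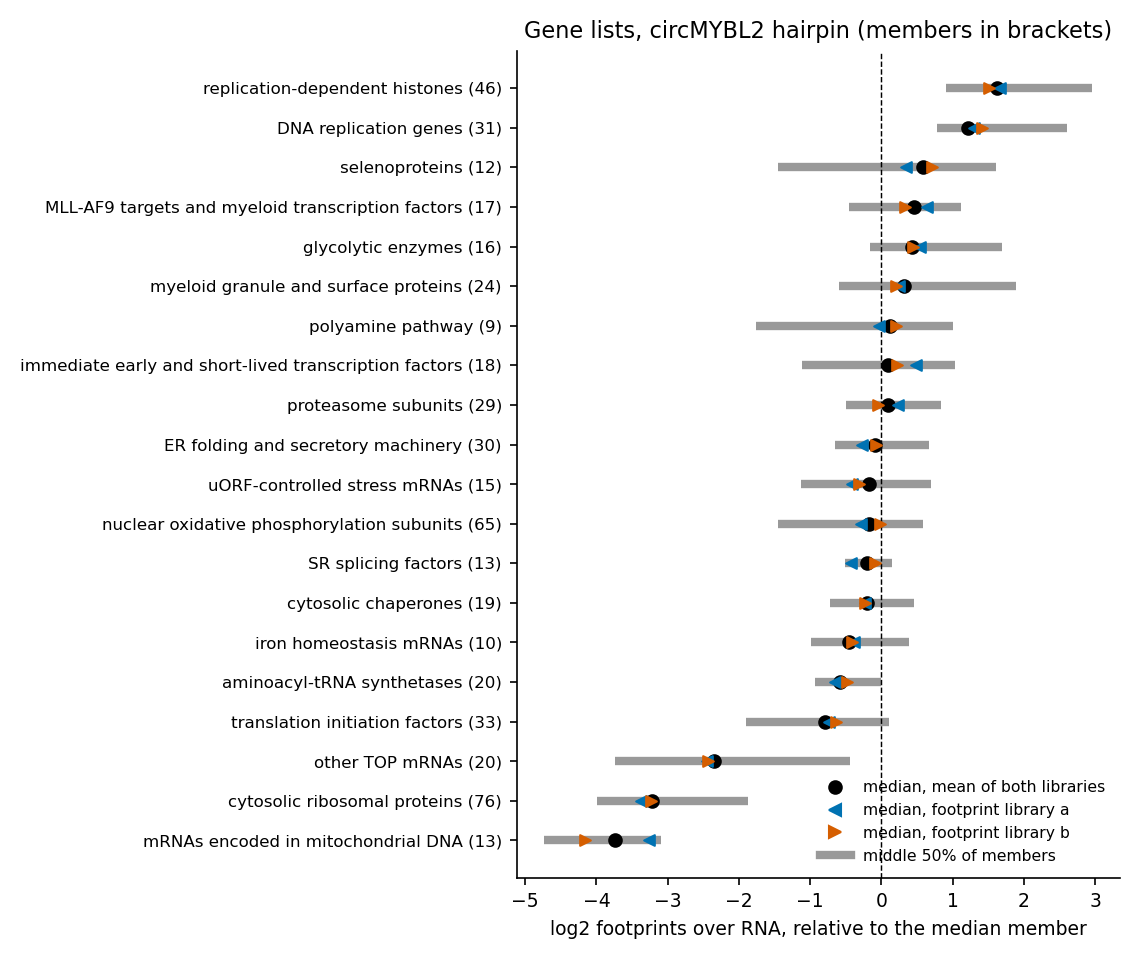
Median log2 ratio of footprints over RNA relative to the median member for 20 gene lists, with the number of members in brackets; black points are the mean of both footprint libraries, triangles each library alone and grey bars the middle 50% of members. Mitochondrially encoded mRNAs, ribosomal proteins and other TOP mRNAs lie at -3.74, -3.21 and -2.35, and histones and DNA replication genes at 1.63 and 1.22.

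All 13 mRNAs encoded in mitochondrial DNA, which mitochondrial rather than cytosolic ribosomes translate, lay among the 884 lowest members, with a median of -3.74. Their RNA had a median of 1364 FPKM. MT-ND6, a complex I subunit and the only one of the 13 encoded on the light strand, had 21401 and 21457 FPKM of RNA and 920 and 534 RPKM of footprints (-4.74 ± 0.61). The light strand is also transcribed opposite other genes, and the strand setting of the counting is not given in the sources used here. MT-ND2 had 1452 and 1276 FPKM against 51.9 and 23.3 RPKM (-5.09 ± 0.88). The least low were MT-ND4L (247 and 96.8 RPKM on 836 and 747 FPKM, -2.16 ± 1.01) and MT-CYB (186 and 129 RPKM on 996 and 998 FPKM, -2.49 ± 0.43). Library a was higher than library b in these genes, with list medians of -3.26 and -4.17. MT-ATP6 and MT-ATP8 share bases, as do MT-ND4 and MT-ND4L, so their values could be split or lost in counting.

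The nuclear-encoded partners of these subunits lay around the median. Of 65 members among 73 nuclear oxidative phosphorylation genes, 27 lay above and 38 below the median member, with a median of -0.17. CYC1, the cytochrome c1 of complex III, had 119 and 125 RPKM of footprints on 17.9 and 18.9 FPKM of RNA (2.93 ± 0.01), and UQCR11, a small subunit of the same complex, had 12.6 and 18.4 RPKM on 2.61 and 2.75 FPKM (2.70 ± 0.33). COX6C of complex IV had 10.1 and 24.0 RPKM on 152 and 161 FPKM (-3.13 ± 0.83) and ATP5L of ATP synthase 3.43 and 8.23 RPKM on 92.1 and 91.55 FPKM (-3.91 ± 0.84). By complex, the medians were 0.01 for 28 members of complex I, -0.26 for 9 of complex III, -0.68 for 9 of complex IV and -0.63 for 15 of complex V. The list's median was 0.33 over the 27 members with no pseudogene named after them.

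Replication-dependent histones, made in S phase from mRNAs that end in a stem-loop in place of a poly(A) tail, lay high. Of 58 genes, 46 were members, 41 of them above the median member and 21 among the 885 highest, with a median of 1.63. Their median exonic length was 506 bases against 5321 over all members. Values are per whole exonic length, and the part of length in the histone ratios was not tested. HIST1H3B had 545 and 378 RPKM of footprints on 15.4 and 19.3 FPKM of RNA (4.92 ± 0.43), and HIST1H4B had 229 and 207 RPKM on 15.1 and 12.7 FPKM (4.17 ± 0.16). By class, medians were 3.39 for 6 H3 genes, 2.62 for 4 H1 genes, 1.79 for 13 H2A genes, 1.38 for 11 H4 genes and 1.0 for 12 H2B genes. HIST1H2BD, with 75.4 and 47.4 RPKM on 168 and 168 FPKM (-1.29 ± 0.53), and HIST1H4L, with 37.1 and 95 RPKM on 171 and 154.5 FPKM (-1.25 ± 0.90), lay on the other side. Histone genes are near-identical copies, and the share of multiply mapping reads was not analysed here, so a value of 1 copy is uncertain.

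DNA replication genes lay high as well: 28 of 31 were above the median member, 11 were among the 885 highest, and the median was 1.22. Their median RNA was 5.62 FPKM, against 6.31 FPKM over all members. After TK1 came POLD1, the catalytic subunit of DNA polymerase delta, with 15.1 and 16.6 RPKM on 1.56 and 1.59 FPKM (3.53 ± 0.04). All 6 subunits of the MCM helicase were above the median member, from MCM3 at 0.34 to MCM2 at 2.78, as were the 4 GINS subunits, from 0.77 to 3.34. PCNA, the sliding clamp, had the most RNA (133 and 135 FPKM) with 176 and 237 RPKM of footprints (0.80 ± 0.25). RFC4 of the clamp loader (-0.40 ± 0.84) and LIG1, the replicative ligase (-0.37 ± 0.77), were below the median member, and for both the distance was less than the SD between libraries.

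Protein folding and turnover lay near the middle. The 29 proteasome subunits had a median of 0.09, with 15 above, from PSMD4 at -1.89 ± 0.13 and PSMC6 at -1.88 ± 0.41 to PSMD3 at 1.45 ± 0.10 and PSMD2 at 1.71 ± 0.35, all of the regulatory particle. PSMB1, a core subunit with the most RNA of the list, stood at 0.93 ± 0.02. The 19 cytosolic chaperones had a median of -0.21. HSP90AB1, the constitutive Hsp90, had 608 and 575 FPKM of RNA and 167 and 210 RPKM of footprints (-1.46 ± 0.18). The TRiC chaperonin, whose 8 subunits form 1 ring-shaped complex, ranged from CCT8 at -1.20 ± 0.66 to CCT4 at 1.21 ± 0.50 and CCT7 at 1.71 ± 0.65. The 30 genes of endoplasmic reticulum folding and secretion had a median of -0.08. SPCS3, a signal peptidase subunit (2.14 ± 0.05), and RPN2, of the oligosaccharyltransferase (1.73 ± 0.62), were high, and SRP9 (-2.22 ± 0.52) and SRP54 (-1.73 ± 0.17) of the signal recognition particle were low, as was HSP90B1, the Hsp90 of this compartment (-1.47 ± 0.00).

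Lists of mRNAs with known translational control spanned both sides of the median. Among 15 mRNAs controlled by upstream open reading frames, with a median of -0.17, CEBPA, a myeloid transcription factor, had 151 and 148 RPKM of footprints on 34.2 and 34.4 FPKM of RNA (2.32 ± 0.08). ATF4, the effector of the integrated stress response, had 10.8 and 6.79 RPKM on 36.1 and 35.9 FPKM (-1.88 ± 0.53), from 7 and 19 reads. CHD2, a chromatin remodeller, was lowest at -3.25 ± 0.21, TMED7, a cargo receptor, stood at 1.89 ± 0.19, and EPRS, the glutamyl-prolyl-tRNA synthetase, at -0.63 ± 0.47.

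In the polyamine pathway, 9 members had a median of 0.11. SRM, spermidine synthase, stood at 2.05 ± 0.86 and SMOX, spermine oxidase, at 1.13 ± 0.37, while SMS, spermine synthase, lay at -1.76 ± 0.33. SAT1, the acetyltransferase that starts polyamine breakdown, lay at -5.12, but on fewer than 20 footprint reads over both libraries. ODC1, ornithine decarboxylase, had 29.9 and 30.9 RPKM on 33.0 and 32.4 FPKM (0.09 ± 0.03), and AZIN1, its antizyme inhibitor, stood at 0.16 ± 0.39. The 10 genes of iron homeostasis had a median of -0.46: next to FTH1, SLC25A37, the mitochondrial iron importer (-1.97 ± 0.10), and FTL, the ferritin light chain (-1.08 ± 0.27), were low, and TFRC, the transferrin receptor (1.12 ± 0.53), was high. FTH1 and FTL are held back, and TFRC is kept stable, by iron regulatory proteins when iron is scarce. Whether this control acted here was not tested. FTH1 had 25 pseudogenes named after it, FTL 16 and TFRC 0.

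Selenoproteins, which read a UGA codon as selenocysteine, had a median of 0.58 over 12 members and the widest middle range of any list outside the TOP mRNAs, from -1.45 to 1.61. SELENON, a protein of the endoplasmic reticulum (3.23 ± 0.56), and MSRB1, a methionine sulfoxide reductase (3.06 ± 0.55), lay at the top, and SELENOF (-2.17 ± 1.06) and GPX4, which reduces lipid peroxides (-1.46 ± 0.73), at the bottom. Of 16 glycolytic enzymes, 11 lay above the median member and the median was 0.43. PFKL, liver-type phosphofructokinase, had 19.9 and 19.4 RPKM on 3.53 and 3.97 FPKM (2.59 ± 0.08) and PGK1, phosphoglycerate kinase, stood at 1.98 ± 0.25, against -1.16 ± 0.14 for LDHB, a lactate dehydrogenase, -0.91 ± 0.48 for TPI1, triose phosphate isomerase, and -0.41 ± 0.12 for ENO1, enolase, which had the most RNA. The 13 SR splicing factors had a median of -0.20, with SRSF2 at 1.93 ± 0.26, SRSF9 at 0.27 ± 0.39, SRSF1 at 0.21 ± 0.13, SRSF4 at -1.86 ± 0.03 and SRSF5 at -2.57 ± 0.40.

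The leukaemia genes of the series gave 1 value near the top, for MYBL2, and others nearer the middle. MYBL2, the cell cycle transcription factor whose gene gives rise to the circle, had 43.1 and 44.0 RPKM of footprints on 3.53 and 3.72 FPKM of RNA, a ratio of 3.79 ± 0.04 and rank 84. Reads of its RNA cover exons shared by the linear mRNA and the circle. FLT3, the receptor in the series title, had 80.8 and 103 RPKM of footprints (87 and 477 reads) on 136 and 142 FPKM of RNA, a ratio of -0.41 ± 0.19 and rank 5539. Against the highest of 5 equal groups of members by RNA, which ran from 17.6 to 21429 FPKM, its ratio was 0.30. PTBP1, an RNA-binding protein, had 55.6 and 45.1 RPKM on 24.0 and 27.5 FPKM (1.16 ± 0.27, rank 1752).

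Of 24 myeloid granule and surface proteins, 14 lay above the median member and 10 below, with a median of 0.32. PRTN3, proteinase 3, had 1321 and 871 RPKM of footprints on 87.6 and 102 FPKM of RNA (3.71 ± 0.48) and ELANE, neutrophil elastase, 361 and 263 RPKM on 55.85 and 59.6 FPKM (2.61 ± 0.38). SRGN, the proteoglycan that packs granules, had 2716 and 4834 RPKM on 830 and 845 FPKM (2.31 ± 0.53), with 858 and 6566 reads, and LYZ, lysozyme, had 2901 and 4198 RPKM on 754 and 705 FPKM. CTSG, cathepsin G of the same granules, was lower, with 11.2 and 11.1 RPKM on 22.1 and 24.8 FPKM (-0.87 ± 0.07), and CD33, a surface lectin, stood at -1.28 ± 0.12. Without genes that have a named pseudogene the list's median was 0.09.

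Among 17 targets of MLL-AF9 and myeloid transcription factors, 12 lay above the median member and the median was 0.46. HOXA10 stood at 2.35 ± 1.45 on 20 and 22 reads and IRF8, a monocyte factor, at 1.55 ± 0.02 on 84 and 389 reads. MEIS1, the partner of HOXA9, lay at -0.91 ± 0.13, MLLT3, the gene of AF9, at -0.88 ± 0.32, and MYB at -0.57 ± 0.19. The 18 immediate early and short-lived transcription factors had a median of 0.09. MYC had 126 and 120 RPKM on 79.5 and 81.6 FPKM (0.81 ± 0.11), JUND stood at 1.65 ± 0.36, MAFK at 1.85 ± 1.16, IER2 at -1.46 ± 0.28 and ID2 at -1.43 ± 1.56.

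Across all members the ratio was lower where RNA was higher. In 5 equal groups by RNA, the median ratio was 1.26 at a median of 1.06 FPKM, then 0.31, -0.08 and -0.31, and -0.71 at 31.8 FPKM. RNA is the denominator of the ratio and members with little RNA had to have a read in each footprint library to be members, so some of this order is built into the measure. The correlation of the ratio with log2 RNA was -0.56 across genes, and that of log2 footprints with log2 RNA was 0.71. The highest of the 5 groups ran from 17.6 to 21429 FPKM. Ribosomal proteins had a median RNA of 181 FPKM, other TOP mRNAs of 187 and mitochondrially encoded mRNAs of 1364. A comparison within groups therefore did not closely match the RNA of these lists. Against members of the same group, ribosomal proteins had a median ratio of -2.51, mitochondrially encoded mRNAs of -3.03 and other TOP mRNAs of -1.64. Histones had one of 2.27 and DNA replication genes of 1.52. The medians of 7 of the 20 lists changed side in this comparison: beside the synthetases, chaperones moved to 0.46, mRNAs with upstream open reading frames to 0.54, nuclear oxidative phosphorylation to 0.24, the secretory machinery to 0.50, SR factors to 0.29 and immediate early genes to -0.18.

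Members with 10 or more pseudogenes named after them numbered 89 and had a median ratio of -2.18 at a median RNA of 130 FPKM, against 0.07 for 7618 members with none. Without ribosomal proteins and other TOP mRNAs, the 48 remaining members with 10 or more had a median of -1.06 at a median RNA of 31.7 FPKM. Within the highest of the 5 RNA groups, again without both lists, the medians did not fall steadily with the number of pseudogenes: they were -0.62 with none (1248 genes), -0.55 with 1 (166 genes), -0.97 with 2 to 4 (177 genes), -0.48 with 5 to 9 (54 genes) and -1.37 with 10 or more (29 genes). Within the ribosomal proteins the median was -3.83 for 35 with 10 or more and -2.43 for 20 with 2 to 4, at a median RNA of 246 and 113 FPKM. It was -3.06 for 14 with 5 to 9, -2.69 for 6 with 1 and -1.89 for the 1 with none, so these bins differ in RNA level too. A short footprint can match a gene and its pseudogene equally, and whether such reads were kept is not given in the sources used here; their part in the low ratios was not tested. Exonic length and base composition varied less with the ratio: the medians ran from 0.25 in the shortest group of members to -0.26 in the longest, and from -0.24 in the group with the least GC around the start to 0.39 in that with the most. RPKM divides by the whole exonic length although footprints lie mostly in coding sequence, whose lengths were not used here.

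**Figure D4:**
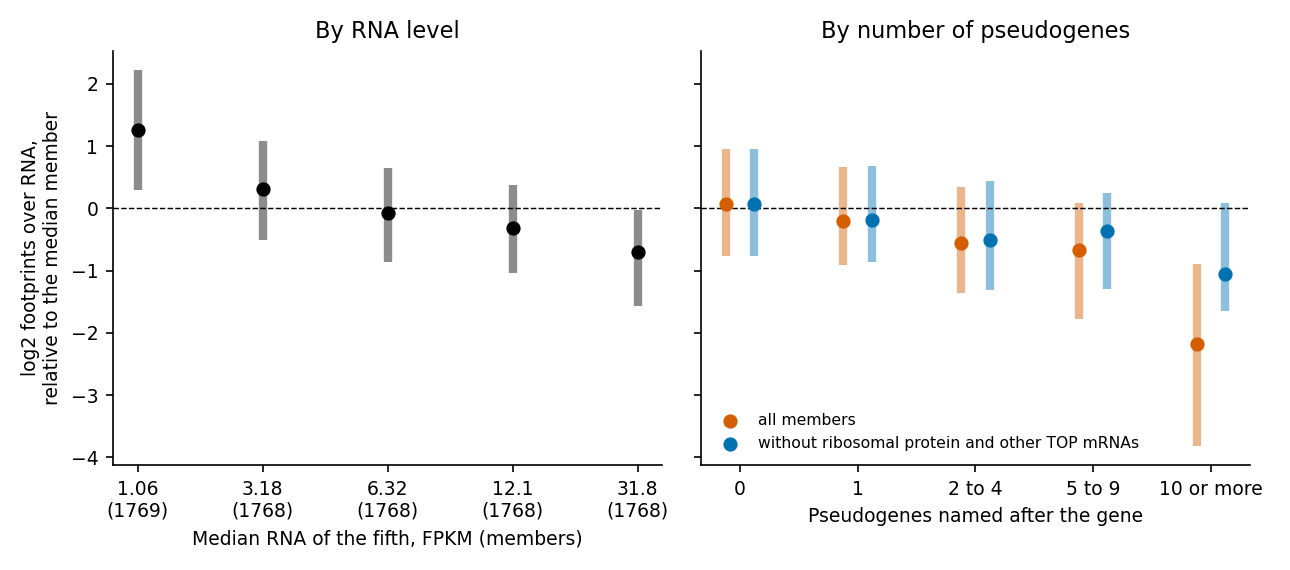
Median (point) and middle 50% (bar) of the log2 ratio of footprints over RNA relative to the median member, by RNA level in 5 equal groups (left) and by the number of pseudogenes named after the gene (right), with all members in orange and without ribosomal protein and other TOP mRNAs in blue. Medians go from 1.26 to -0.71 along the RNA level, and from 0.07 to -2.18 along the pseudogene number.

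Genes just inside and just outside the requirement of a read in every library shaded into each other. Of 12834 protein-coding genes above 0 in both RNA libraries, 1542 were at 0 in footprint library a only, 192 in library b only and 2259 in both. Members with 1 read in library a numbered 1017, with a median RNA of 1.96 FPKM and 7 reads in library b, while genes at 0 in library a only had a median RNA of 1.06 FPKM and 3 reads in library b. The members held 99.7% and 98.6% of protein-coding footprint reads and 97.4% of protein-coding RNA reads.

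Some genes with much RNA stayed outside. NDUFS5, a complex I subunit, had 588 and 602 FPKM of RNA with 0 and 17 footprint reads, where a gene at the median ratio would have had 72.9 and 332. RPL39, a ribosomal protein, had 211 and 227 FPKM with 0 and 2 reads against 105 and 476 at the median ratio. HIST1H2BK, a histone H2B, ATP6V1F, of the vacuolar proton pump, and PFDN2, a prefoldin subunit, had 128 to 154 FPKM over the RNA libraries with 0 reads in library a and 8 to 18 in library b.

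Small non-coding RNAs stood apart from mRNAs in the same 4 libraries. Above 0 in all 4, 34 microRNAs had a median ratio of 8.56, 103 snoRNAs of 4.81 and 9 mitochondrial tRNAs of 4.30, relative to the median protein-coding member. Long non-coding classes lay lower, at -0.56 for 79 lincRNAs, -0.40 for 80 antisense RNAs and -1.10 for 28 processed transcripts. Reads of fragments that carry no ribosome are counted in these columns like footprints, and fragment lengths were not analysed here.

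The order of genes was largely shared with the control hairpin, whose 4 libraries were not used in the ranking. Of the members, 4199 were above 0 in all 4 sh-NC columns, and their ratios in the 2 hairpins, each relative to the median of these 4199 genes, correlated with r = 0.81 across genes, with no library in common. The ratios of both hairpins divide by RNA of the same cell line, and over all members the ratio itself correlated with log2 RNA at -0.56. How much of this r, and of the shared ends and sides that follow, comes from shared RNA levels was not tested. Of the 420 highest genes with the circMYBL2 hairpin, 273 (65.0%) were among the 420 highest with sh-NC, 219 (52.1%) of the 420 lowest were among the 420 lowest, and 0 changed ends. All 13 of the 15 highest genes and all 6 of the 15 lowest genes that could be measured in sh-NC lay on the same side of the median in both sh-NC libraries. TK1 had 19.6 and 26.1 RPKM on 0.525 and 0.448 FPKM there, a ratio of 5.67 against 5.38 on the shared genes with the circMYBL2 hairpin.

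The 5 lists farthest from the median lay on the same side with both hairpins. On shared genes, medians with the circMYBL2 hairpin and sh-NC were -3.19 and -2.94 for 62 ribosomal proteins, -3.92 and -3.78 for 11 mitochondrially encoded mRNAs and -2.36 and -1.70 for 18 other TOP mRNAs. They were 1.69 and 2.74 for 35 histones, 1.04 and 2.22 for 25 DNA replication genes, and -0.15 and -1.24 for 11 mRNAs with upstream open reading frames. By library, the DNA replication median was 1.15 and 1.24 with the circMYBL2 hairpin and 1.76 and 2.39 with sh-NC. The histone median was 1.81 and 1.62 against 3.30 and 2.25, and that of the mRNAs with upstream open reading frames -0.05 and -0.15 against -1.56 and -0.94. The libraries of the 2 hairpins did not overlap in these 3 lists, which are among 14 of the 20 lists where this held. It also held for 1950 (46.4%) of the 4199 shared genes taken singly, and no test was made of a list's median.

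**Figure D5:**
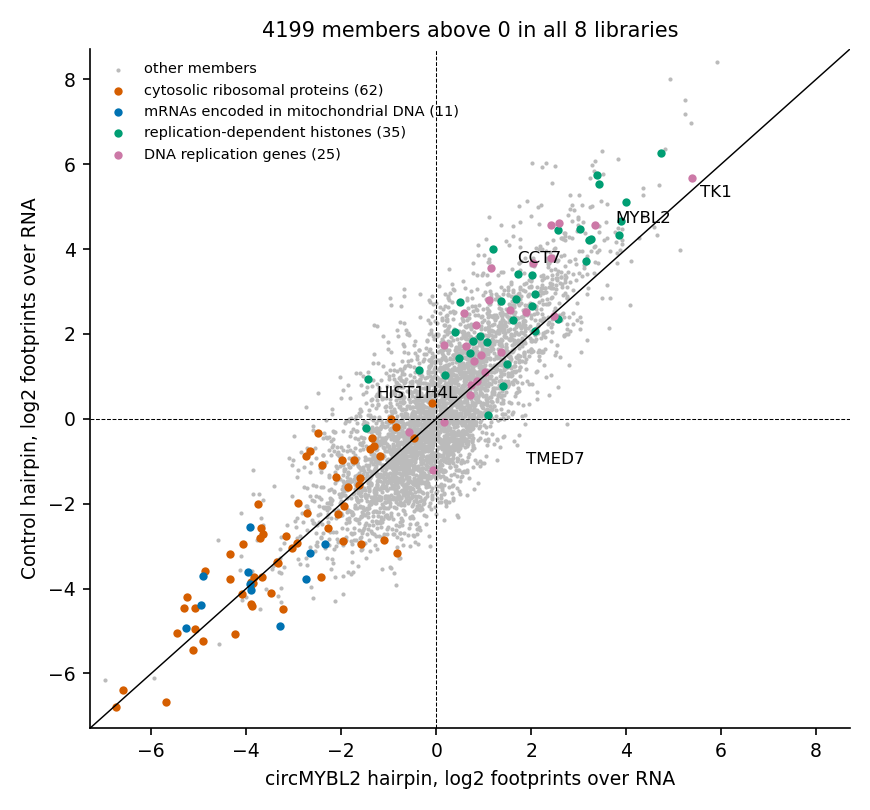
Log2 ratio of footprints over RNA with the control hairpin (vertical axis) against that with the circMYBL2 hairpin (horizontal axis) for 4199 genes above 0 in all 8 libraries, each relative to the median of these genes; the diagonal marks equal values. Ribosomal protein and mitochondrially encoded genes lie at the lower left, histone and DNA replication genes at the upper right.

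Whether the ratio of a gene differed between hairpins was tested as the interaction of hairpin and assay in limma over all 8 libraries, which compares columns only within a table. Of 8260 genes tested, 417 (5.05%) were called higher with the circMYBL2 hairpin and 22 (0.266%) lower at a Benjamini-Hochberg adjusted p under 0.05. Among the 7405 members tested, 373 were called higher and 19 lower. Of the 373, 361 were at 0 in an sh-NC footprint library, as were 3354 of the 7405 members tested. Members had to be above 0 in both circMYBL2 hairpin footprint libraries, so the direction of these calls is tied to how the members were chosen. The median change was 0.61 over members tested and 0.06 over those above 0 in all 8 libraries. Among the genes above 0 in all 8 libraries tested on their own, the number of calls was 0, with 752 at an unadjusted p under 0.05.

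Of the 20 lists, 497 members were tested: 21 were called higher, each with both sh-NC footprint libraries at 0, and 3 were called lower, each above 0 in all 8 libraries. CCT7 of the TRiC chaperonin had 145 and 81.5 RPKM of footprints with the circMYBL2 hairpin and 562 and 612 with sh-NC, while its RNA was 37.7 and 38.8 FPKM against 36.9 and 37.7. The interaction was -2.45 (SE 0.42, 95% interval -3.50 to -1.41, limma adjusted p = 0.0367). RPL37A, a ribosomal protein, had 7.90 and 9.19 RPKM against 39.1 and 36.2 (-1.91, limma adjusted p = 0.0289), and HIST1H1B, a linker histone, had 533 and 492 RPKM against 625 and 657 on RNA of 172 and 144 against 65.6 and 65.1 FPKM (-1.57, limma adjusted p = 0.0386). RPL37A and HIST1H1B were singled out after their values were seen. Each of the 3 calls was lost under 7 of 14 other settings, over which limma adjusted p ran from 0.00822 to 0.287 for CCT7, from 0.00107 to 0.287 for RPL37A and from 0.00432 to 0.571 for HIST1H1B. FLT3 (-0.23, 95% interval -0.96 to 0.49), MYBL2 (-0.88, -2.76 to 1.0) and PTBP1 (-0.66, -1.37 to 0.05) did not pass, with limma adjusted p = 0.727, 0.614 and 0.290. By list, and against 5.31% of all genes tested, calls in either direction numbered 7 of 63 nuclear oxidative phosphorylation genes tested, 6 of 46 histones, 2 of 75 ribosomal proteins, 2 of 30 genes of the secretory machinery, and at most 1 in every other list. All 7 oxidative phosphorylation calls and 5 of the 6 histone calls were higher ones, with both sh-NC footprint libraries at 0. Such genes entered through the group where they are high, so these counts are a description and no test of a list.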

How the data were processed

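Ribosome footprints and input RNA were measured in MOLM-13 cells with a control or a circMYBL2 hairpin, 2 libraries in each of 4 groups, grouped by sample titles. The authors deposited footprints as RPKM and input RNA as FPKM, both scaled by them to gene length and a library total. Per the submitters' processing notes, cutadapt, Bowtie, HISAT2, featureCounts and DESeq2 were used with hg38; no source used here gives versions, order or strand setting. Whole reads were recovered from both tables with RefSeq hairpin lengths of microRNA genes, for which 98.5% to 99.4% of values under 500 reads came out within 0.02 of a whole read. They served for depth, for read minimums and read numbers of genes, and for a voom alternative. The footprint totals found in this way were not the reads on genes. They were 82265 and 185632 for sh-NC, with 80160 and 300379 reads on genes. Libraries a and b had totals of 258923 and 1113399, with 222855 and 715092 reads. What the totals count was not established here, and the limma interaction used values scaled by them. Depth limits the footprints: 1 read in library a was a large step for most genes, and counts cover counting error only.

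Ratios were mean log2 footprints minus mean log2 RNA over the 2 libraries each, less the median over members, with no pseudocount. The SD compares libraries a and b. Promoter windows (300 bases, first start listed) and starts came from RefSeq tables of GRCh38.p14, with 7300 of 8841 members matched by symbol. Only 60 of 76 ribosomal protein members had a window, under 80%, so a check of starts over that list is void. Pseudogenes were counted by their symbols in the tables. The members, the 20 gene lists and the tests were chosen with earlier results of these data known.

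Named genes were the 15 highest members with at least 1 FPKM and 20 footprint reads, the 15 lowest with at least 20 FPKM, all on 1 side of the median in both libraries. In each list the 2 highest and 2 lowest with at least 20 reads and the member with the most RNA were named, as were FLT3, MYBL2, PTBP1 and 5 genes with much RNA at 0 in a footprint library. Other genes and all subgroups of lists were singled out with their values in view. A few genes that the rule names are not reported here.

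The interaction of hairpin and assay was tested with limma 3.58.1 in R 4.3.3 (lmFit, eBayes with trend) on log2(value + 1), two-sided, over the 8260 genes whose mean reached 1 in both tables. It gives each gene a single variance over footprints and RNA, so its p-values may be too small. It was read for listed genes only. The pseudocount understates changes of low genes. With 2 libraries against 2, the least p of an exact permutation test is 0.333. The scripts were tested on simulated data. Alternatives were other pseudocounts and filters, voom on recovered reads, quantile normalization, means of libraries and each library left out. After seeing the data, 3 were added: members without pseudogenes, ratios against members of the same of 5 RNA groups, and members above 0 in all 8 libraries.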

Additional observations from a re-analysis of the deposited data

Results flagged for a closer look

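Among the named genes above 0 in all 8 libraries, HIST1H4L and TMED7 lay on opposite sides of the median with the 2 hairpins, in every footprint library. Relative to the 4199 shared genes, HIST1H4L, a histone H4 copy, had a ratio of -1.44 with the circMYBL2 hairpin and 0.93 with sh-NC. It rested on 3 and 33 reads against 7 and 5, and its RNA was 171 and 154.5 FPKM against 86.0 and 89.97. TMED7, a cargo receptor of the early secretory pathway, had 1.71 against -0.61, on 26 and 142 reads against 1 and 5. The difference between sides was not tested as such. In the limma interaction HIST1H4L had -2.23 (adjusted p = 0.263) and TMED7 2.21 (adjusted p = 0.0694). Both were named for their ratios with the circMYBL2 hairpin, HIST1H4L as low and TMED7 as high within its list. The same libraries enter the interaction, so this choice favours such differences and the values are a description. Of the 4199 shared members, 298 (7.10%) lay on opposite sides in this way.

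Of the genes in the 20 lists, 21 were higher and 3 lower with the circMYBL2 hairpin in the limma interaction at an adjusted p under 0.05. Given here are the 3 lower genes and those of the 21 that the naming rule picked. Lower were CCT7 (-2.45), RPL37A (-1.91) and HIST1H1B (-1.57), each lower in 2 of 2 footprint libraries than in either sh-NC library. HIST1H1B differed more in RNA, with 172 and 144 FPKM against 65.6 and 65.1, than in footprints, with 533 and 492 RPKM against 625 and 657. Among the higher genes, the fitted change was 3.97 for UQCR11, 3.86 for SRP9 and 2.43 for PSMC6. All 21 had 0 footprint reads in both sh-NC libraries, and these had 51, 43 and 47 reads with the circMYBL2 hairpin. Members had to be above 0 in both libraries of that hairpin, so the higher genes entered through the group where they are high, and their values are a description without a test. The fitted values also depend on the pseudocount. UQCR11 and PSMC6 stayed past the threshold under 7 of 13 other settings and SRP9 under 6 of 13, with limma adjusted p up to 0.286, 0.397 and 0.286.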

How the results depend on the processing

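The 20 list medians were recomputed under 11 alternatives. Of 219 values, 169 moved by less than the spread between libraries and 17 changed side; 10 lists kept their side throughout: ribosomal proteins, other TOP mRNAs, initiation factors, mitochondrially encoded mRNAs and iron genes below, and histones, DNA replication, glycolysis, MLL-AF9 targets and granule and surface proteins above. The cause of each change was not tested. With zeros kept at log2(value + 1), medians were -2.92 for ribosomal proteins, -2.11 for other TOP mRNAs, -0.57 for initiation factors, -0.40 for mRNAs with upstream open reading frames, 0.32 for polyamine genes, -3.50 for mitochondrially encoded mRNAs, -0.34 for synthetases, 0.022 for SR factors, -0.11 for immediate early genes and -0.065 for iron genes, and chaperones (0.0024) and selenoproteins (-0.39) reversed. With at least 1 FPKM and 20 reads, medians were 1.83 for histones, 0.69 for immediate early genes and -0.22 for iron genes.

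Over members with no pseudogene, medians were -0.083 for other TOP mRNAs, 0.33 for nuclear oxidative phosphorylation, 1.49 for glycolysis, -0.53 for SR factors and 0.089 for granule and surface proteins, and chaperones reversed (0.0024). Against the same RNA level, medians were -2.51 for ribosomal proteins, -1.64 for other TOP mRNAs, -0.15 for initiation factors, 2.27 for histones, 0.54 for upstream open reading frames, 0.82 for polyamine genes, -3.03 for mitochondrially encoded mRNAs, 0.24 for nuclear oxidative phosphorylation, 0.54 for the proteasome, 0.50 for the secretory machinery, 1.10 for glycolysis, 0.29 for SR factors, -0.18 for immediate early genes, 0.85 for MLL-AF9 targets, 0.73 for granule and surface proteins, -0.15 for iron genes and 1.52 for DNA replication. Of these, the medians of upstream open reading frames, nuclear oxidative phosphorylation, the secretory machinery, SR factors and immediate early genes changed side from within 0.199, the SD of list medians between libraries, and chaperones (0.46) and synthetases (0.064) did so from beyond it. Named genes that changed side from beyond their SD were RPLP1 (0.42), EPRS (0.080), ENO1 (0.30), MYB (0.14) and FLT3 (0.30). Over genes above 0 in all 8 libraries, medians were 0.14 for glycolysis, 0.63 for immediate early genes, 0.66 for granule and surface proteins and 0.88 for selenoproteins, and ODC1 reversed (-0.087). Leaving out each library in turn gave -4.17 to -3.26 for mitochondrially encoded mRNAs, -0.41 to -0.15 for upstream open reading frames, -0.43 to -0.088 for SR factors, 0.039 to 0.48 for immediate early genes and 0.34 to 0.72 for selenoproteins.

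The 439 calls of the interaction became 853 with a pseudocount of 0.1, 2 with 5, 209 with voom, and 0 with quantile normalization (1213 at an unadjusted p under 0.05) or over genes above 0 in all 8 libraries (752). Leaving out 1 library gave 0 to 4895 calls: 0 without any 1 of the 4 RNA libraries, and 4895 without sh-NC footprint library 2, 3041 without library 1, and 1076 and 1006 without libraries a and b. No paired analysis was possible because the sh-circMYBL2 footprint columns carry no replicate number. Footprints per coding length were not run, as coding lengths were not used here. Shallow footprints limit single genes most: the median SD between libraries was 0.61 under 20 reads and 0.32 above.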
